A study of Homo sapiens with 32 samples.

Results

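The genes described here are 10 components of the circadian clock, chosen by symbol: PER1, PER2, PER3, CRY1, CRY2, NR1D1, NR1D2, DBP, BHLHE40 and CLOCK. All 10 had a row among the 18980 coding genes of the deposited tables. Total RNA was sequenced from RH4, an established cell line of human alveolar rhabdomyosarcoma (a muscle-lineage childhood tumour), plated the day before treatment in medium with serum. The treatments were A485, dCBP, IHK-44 and JQAD, which the study describes as inhibitors or degraders of the histone acetyltransferases CBP and p300. Each was given at 2 doses (100 nM and 1000 nM) and sampled after 2 h and after 6 h. A485 is known as a catalytic inhibitor of both enzymes. Controls of the same 2 times were the solvent DMSO and NT, an abbreviation that is not explained in the labels. This gives 20 libraries with 1 library per condition. The other 12 of the 32 samples (ChIP-seq and ChRO-seq) were not analysed here.

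The clock is a transcriptional feedback loop that runs in most cells. CLOCK and its partner BMAL1 bind E-box sequences and switch on the PER and CRY genes, whose proteins return to the nucleus and repress CLOCK and BMAL1. NR1D1 and NR1D2 (the REV-ERB nuclear receptors) are E-box targets that repress BMAL1, DBP is an output factor that activates genes through D-box sequences, and BHLHE40 is a repressor that competes for E-boxes. CBP and p300 are coactivators that acetylate histones at enhancers, and they are recruited to clock promoters. Cells of a culture line are usually out of phase with each other unless a change of medium, serum or a hormone aligns them, so a pooled sample shows the average over phases. BMAL1 was not analysed here.

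Library totals ran from 13466631 to 16799327 expected counts (estimated reads per gene) over the coding rows. The 6 markers of rhabdomyosarcoma, which include the myogenic factors MYOD1 and MYOG, each reached 1 CPM (the deposited count scaled to a fixed library total) in every library. Their summed level was 2077 to 2286 CPM in DMSO and NT and, at 6 h, 1192 to 1610 CPM with A485 and 924 to 1321 CPM with dCBP or IHK-44. At 6 h 5 of the 6 were called lower with A485 and 6 of 6 with dCBP and IHK-44. Of all genes tested, 8.70% were called lower with A485, 22.4% with dCBP and 21.4% with IHK-44. The tumour's own markers were thus lower in the same libraries as the clock genes below, and their part in those results was not tested. Summed markers of epithelium reached at most 0.1475 CPM, of leukocytes at most 0.1485 CPM and of endothelium at most 1.68 CPM. In bulk RNA, fewer cells with a transcript and less of it per cell cannot be told apart. The labels name no separate cultures. Each condition has 1 library, so the fits take the 2 doses of a compound, and DMSO with NT, in place of replicates. The p-values measure only the spread between these libraries, which holds dose and control differences and may otherwise be technical.

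Per unit of length (deposited FPKM, reads scaled by transcript length and library total), NR1D2 and CRY1 were the most abundant of the 10, with medians over the 20 libraries of 23.3 and 22.7 FPKM. CLOCK followed at 13.7 and PER1 at 12.6 FPKM. CRY2 and PER2 lay at 5.43 and 5.41 FPKM, PER3 at 3.95, NR1D1 at 3.72, DBP at 2.38 and BHLHE40 at 1.19 FPKM. Ranges of neighbours in this order overlapped, except at 2 steps. CRY1, from 19.2 to 25.6 FPKM, stayed above CLOCK, from 8.80 to 18.6 FPKM, and PER1, from 6.93 to 18.7 FPKM, stayed above CRY2, from 4.13 to 6.83 FPKM. NR1D2 had the widest range, from 9.06 to 36.3 FPKM. BHLHE40 rested on 25 to 166 expected counts per library and DBP on 47.55 to 136.28, so their values carry the widest counting intervals. Levels below are in CPM as deposited, which compares 1 gene between libraries.

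**Figure D1:**
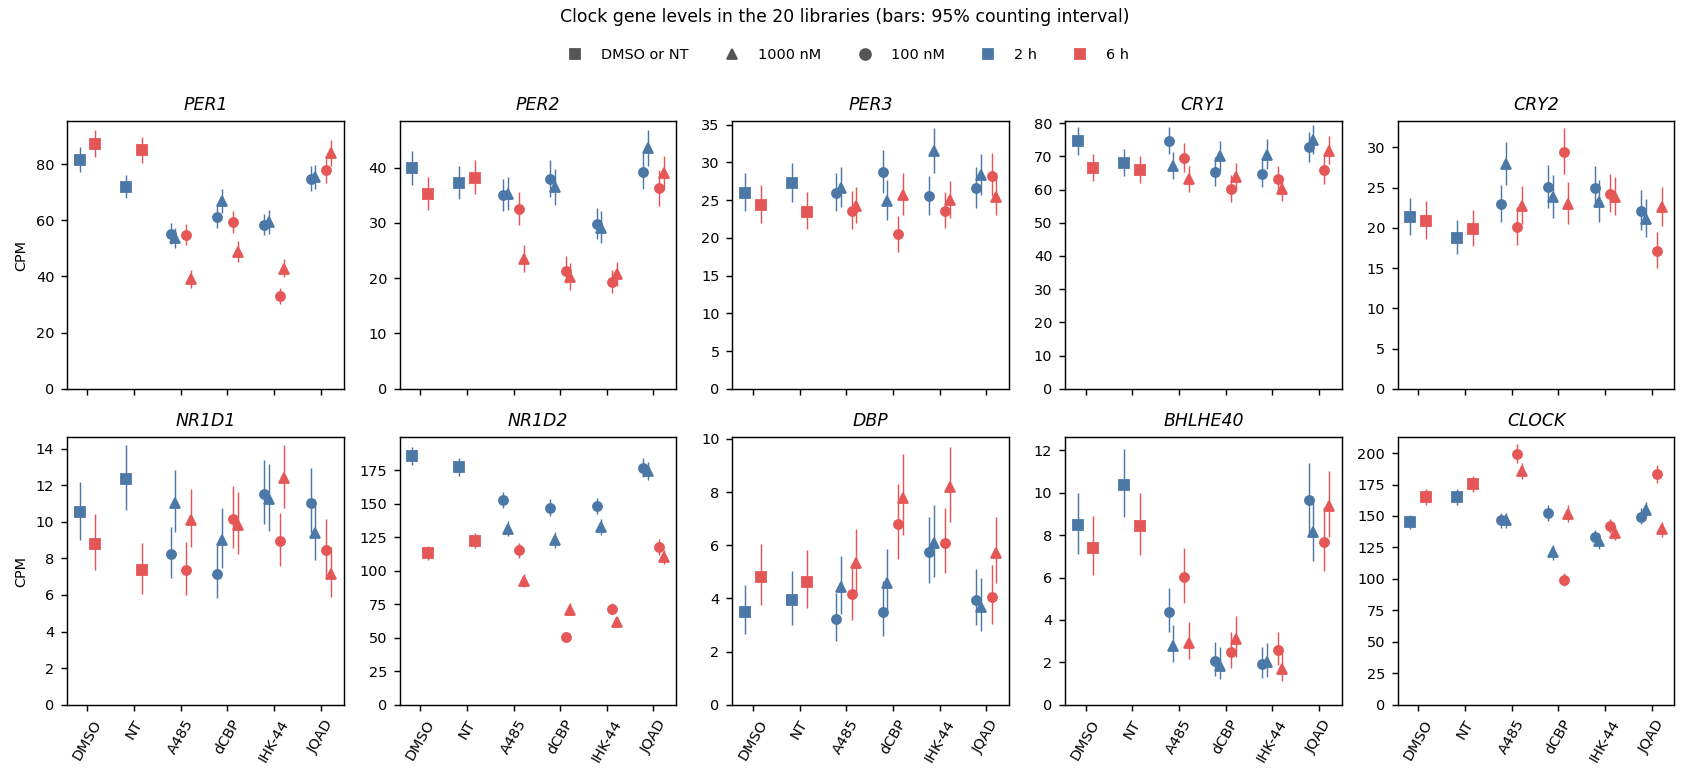
Level of each gene (CPM, vertical axis from 0 in each panel) in every library, by treatment, with 2 h in blue and 6 h in red, triangles for 1000 nM and circles for 100 nM, squares for DMSO and NT, and bars for the 95% counting interval. BHLHE40 lies between 7.41 and 10.4 CPM in DMSO, NT and JQAD and between 1.68 and 6.00 CPM in the other 12 libraries.

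Promoter windows are shown for PER1, PER2, NR1D2 and BHLHE40, the 4 genes with the largest fitted decreases at 6 h of dCBP and IHK-44. They are the RefSeq windows on GRCh38.p14 from 250 bases before to 50 bases after an annotated start, 300 bases each, written 5′ to 3′ on the gene's strand. All 10 genes matched, with 14 windows. Capitals mark matches, on either strand, to an E-box (CACGTG), a related E-box form (CACGTT), a D-box (TTATGTAA or TTACGTAA) or the half-site of ROR and REV-ERB receptors (AGGTCA). The windows are PER1 at chr17:8152355-8152654 (minus strand), PER2 at chr2:238288561-238288860 (minus strand), NR1D2 at chr3:23945871-23946170 (plus strand, its second window) and BHLHE40 at chr3:4979187-4979486 (plus strand).
PER1: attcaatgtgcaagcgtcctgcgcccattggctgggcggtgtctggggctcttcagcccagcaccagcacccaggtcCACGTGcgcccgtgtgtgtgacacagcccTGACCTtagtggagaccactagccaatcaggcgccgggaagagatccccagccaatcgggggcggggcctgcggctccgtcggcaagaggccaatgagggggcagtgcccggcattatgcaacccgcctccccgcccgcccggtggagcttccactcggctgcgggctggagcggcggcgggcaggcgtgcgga
PER2: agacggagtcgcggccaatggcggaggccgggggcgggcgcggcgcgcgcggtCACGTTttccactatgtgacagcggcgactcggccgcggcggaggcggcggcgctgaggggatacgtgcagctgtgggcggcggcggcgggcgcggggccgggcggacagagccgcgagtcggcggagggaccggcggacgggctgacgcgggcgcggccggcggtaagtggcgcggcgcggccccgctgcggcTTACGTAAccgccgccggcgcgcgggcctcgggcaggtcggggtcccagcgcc
NR1D2: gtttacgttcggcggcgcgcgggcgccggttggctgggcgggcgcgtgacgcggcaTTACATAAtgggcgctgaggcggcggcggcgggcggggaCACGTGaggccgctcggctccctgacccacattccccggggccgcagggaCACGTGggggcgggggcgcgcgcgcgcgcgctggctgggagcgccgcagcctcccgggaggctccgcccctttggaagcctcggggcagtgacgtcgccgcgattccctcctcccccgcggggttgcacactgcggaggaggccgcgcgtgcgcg
BHLHE40: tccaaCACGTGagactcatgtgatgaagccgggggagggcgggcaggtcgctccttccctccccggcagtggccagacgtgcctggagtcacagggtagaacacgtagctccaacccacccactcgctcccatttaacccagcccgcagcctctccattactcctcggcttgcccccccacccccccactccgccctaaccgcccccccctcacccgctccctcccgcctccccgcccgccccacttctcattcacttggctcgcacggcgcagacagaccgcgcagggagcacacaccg

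NR1D2 carried 2 E-boxes in the window shown, whose first bases lie 155 and 105 bases before the start, and a D-box at 194. Its first window held no match to any of the motifs. PER1 carried 1 E-box at 173 bases and 1 receptor half-site at 144 bases before the start. BHLHE40 had 1 E-box, 245 bases before the start. PER2 had 1 CACGTT at 197 bases and 1 TTACGTAA at 3 bases before the start. None of these matches overlapped another. Among all 35116 windows of this length, CACGTG occurred in 7.26%, CACGTT in 5.34%, TTATGTAA in 0.886%, TTACGTAA in 0.125% and AGGTCA in 13.8%. Of the 14 windows of the 10 genes, 3 held CACGTG, 5 held CACGTT, 2 held TTATGTAA, 1 held TTACGTAA and 3 held AGGTCA. The cyclic AMP response element TGACGTCA, present in 1.85% of all windows, had no match in the 14. A match describes the letters and shows no binding.

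The first comparison was the change from 2 h to 6 h without a CBP/p300 compound, in DMSO and NT. NR1D2 and NR1D1, the REV-ERB genes, were lower at 6 h than at 2 h in both conditions, and none of the other 8 genes had an unadjusted p under 0.05. NR1D2 stood at 186 CPM in DMSO and 177 CPM in NT at 2 h, and at 113 and 123 CPM at 6 h. NR1D1 stood at 10.5 and 12.3 CPM at 2 h and at 8.79 and 7.34 CPM at 6 h. For both genes the DMSO and NT libraries at 6 h lay below those at 2 h. The same held for PER3, CRY1 and BHLHE40, so it was not particular to the REV-ERB genes. For PER1 and DBP the 6 h libraries lay above those at 2 h. How many of all genes did so was not counted.

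The fitted log2 change was -0.62 for NR1D2 (SE 0.15, edgeR quasi-likelihood adjusted p = 0.175) and -0.50 for NR1D1 (SE 0.20, edgeR adjusted p = 0.464). Neither passed the threshold of 0.05, and 0 of 10 genes were called, against 10 of 13260 genes tested (0.0754%). At an unadjusted p under 0.05 there were 2, these same REV-ERB genes, and DESeq2 called 1. Shares of all genes at an unadjusted p under 0.05 are not given, here or below, so such counts cannot be set against them. NR1D2 passed with DESeq2 (adjusted p = 0.0277) and with edgeR on the 4 DMSO and NT libraries alone (adjusted p = 1.35e-18), where NR1D1 also passed (adjusted p = 0.0287). The 4-library fit has 1 residual degree of freedom and called 1290 genes.

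JQAD, for which no gene passed against DMSO and NT, gave the same direction for the REV-ERB genes. NR1D2 went from 175 to 110 CPM at 1000 nM and from 177 to 118 CPM at 100 nM. When the change was averaged over DMSO, NT and JQAD, a comparison added after seeing the data, NR1D2 fell by 0.64 on the log2 scale (edgeR adjusted p = 0.00574). CRY2 was the 1 gene whose small change in DMSO and NT turned sign in an alternative, and it was 0.03 in log2 terms to begin with. The time change of the D-box factor DBP was 0.35 (SE 0.23, edgeR adjusted p = 0.725), from 3.48 and 3.92 CPM to 4.80 and 4.63 CPM. That of CLOCK was 0.14 (SE 0.15, edgeR adjusted p = 0.899).

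**Figure D2:**
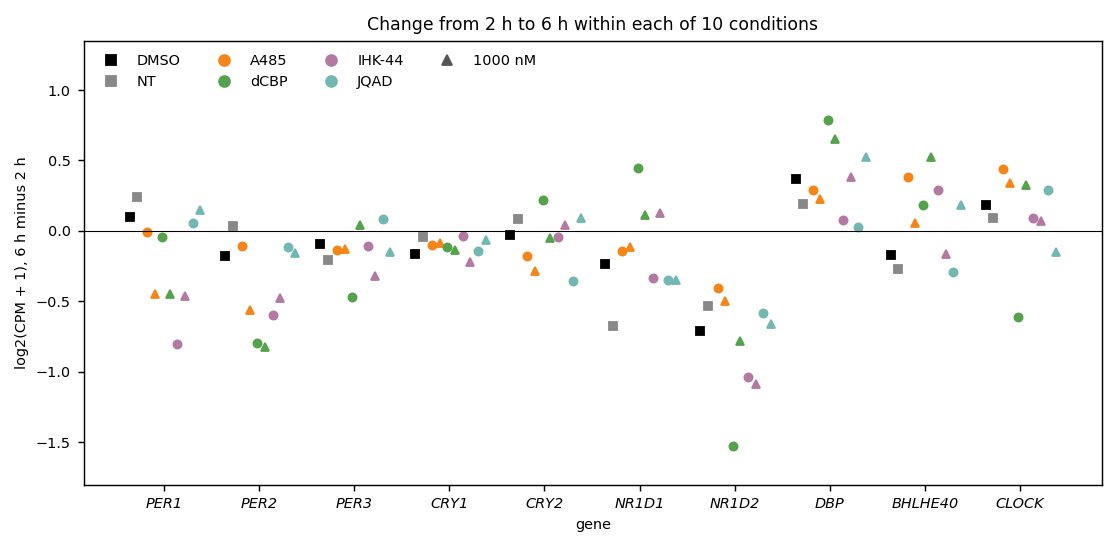
Difference between 6 h and 2 h in log2(CPM + 1) for each gene within each of the 10 conditions, colours for treatment and triangles for 1000 nM. NR1D2 is below 0 in all 10 conditions, from -0.40 with A485 at 100 nM to -1.52 with dCBP at 100 nM.

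The second comparison set each compound against DMSO and NT of the same time. At 2 h the clock gene with the largest change was BHLHE40, the E-box competitor, which fell with dCBP and IHK-44. By 6 h, PER1, PER2 and BHLHE40 had fallen with A485, dCBP and IHK-44, NR1D2 and CLOCK had fallen with dCBP and IHK-44, and CRY1 had fallen with IHK-44. PER3, CRY2, NR1D1 and DBP were not called at either time with any compound, and no gene of the 10 was called with JQAD.

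Counts were as follows. At 2 h, 0 of 10 genes were called with A485 (0.0452% of 13260 genes tested), 1 was lower with dCBP (2.67% of all genes were lower) and 1 with IHK-44 (2.45%). At 6 h, 3 were lower with A485 (8.70% of all genes), 5 with dCBP (22.4%) and 6 with IHK-44 (21.4%), and 0 were higher. The median fitted log2 change of the 10 genes at 6 h was -0.09 with A485, -0.43 with dCBP and -0.37 with IHK-44, and that of all genes tested was 0.02, 0.06 and 0.06. With library sizes alone as scaling, the lower and higher calls over all genes moved from 2964 and 3074 to 2158 and 4703 with dCBP at 6 h, from 2842 and 2742 to 2166 and 4699 with IHK-44, and from 1154 and 1043 to 967 and 1655 with A485.

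That split comes with a shift in CPM itself. Relative to DMSO at the matching time, the median gene lay 0.16 to 0.22 higher on the log2(CPM + 1) scale in the 4 dCBP and IHK-44 libraries at 6 h. The fits, scaled by TMM (which sets the bulk of genes near 0), therefore give somewhat larger decreases than the CPM values. This matters for the 2 smallest changes, CRY1 and CLOCK, and is given beside them.

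**Figure D3:**
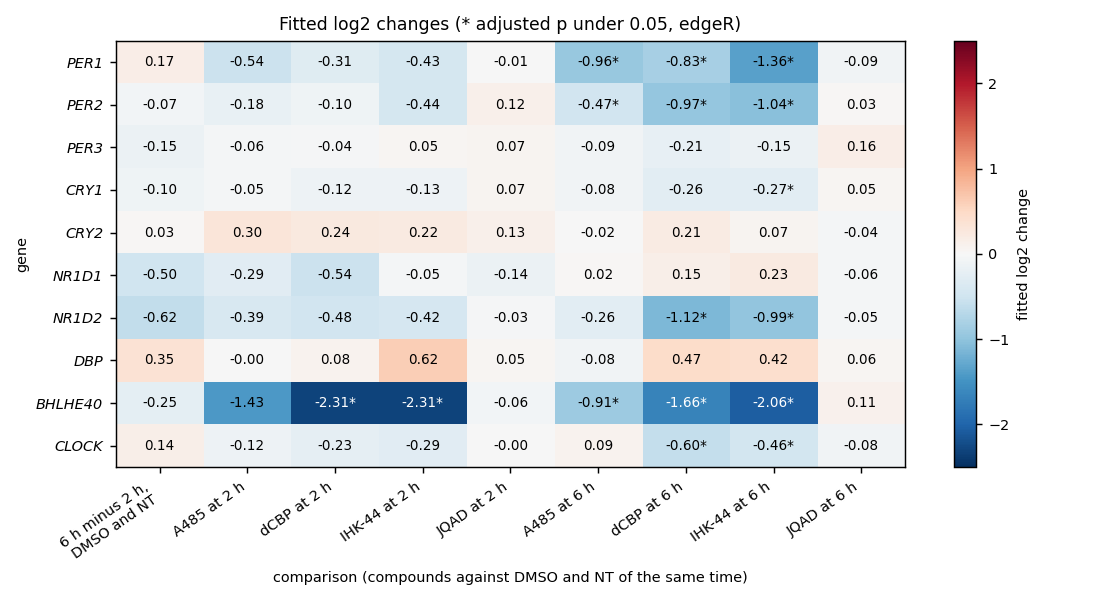
Fitted log2 change of each gene (rows) in each comparison (columns), from edgeR, blue for lower and red for higher, with an asterisk at an adjusted p under 0.05. BHLHE40 is marked in 5 compound columns, PER1 and PER2 in the 3 columns of A485, dCBP and IHK-44 at 6 h, and no JQAD column holds a mark.

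BHLHE40 (also known as DEC1) was the lowest in relative terms. In DMSO and NT it stood at 8.46 and 10.4 CPM at 2 h and at 7.41 and 8.43 CPM at 6 h. With dCBP at 2 h it stood at 1.85 CPM (1000 nM) and 2.06 CPM (100 nM), and with IHK-44 at 2.00 and 1.91 CPM. These 4 libraries lay well below every DMSO, NT and JQAD library, and their 95% counting intervals reached no higher than 2.98 CPM.

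The fitted log2 change of BHLHE40 at 2 h was -2.31 with dCBP (SE 0.33, edgeR adjusted p = 0.00507) and -2.31 with IHK-44 (SE 0.33, edgeR adjusted p = 0.00141), and both classes averaged 20.8% of the mean of DMSO and NT. A485 at 2 h gave 2.78 CPM at 1000 nM and 4.38 CPM at 100 nM, 38.0% of that mean. Its change of -1.43 (SE 0.30) did not pass, with an edgeR adjusted p = 0.0728. For A485 at 2 h the count of genes at an unadjusted p under 0.05 was 3 of 10, DESeq2 called 1, and edgeR without the filter on low counts called 2. The share of all genes at that unadjusted threshold is not given.

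At 6 h BHLHE40 was still low. It stood at 3.10 and 2.48 CPM with dCBP (1000 and 100 nM), at 1.68 and 2.56 CPM with IHK-44 and at 2.93 and 6.00 CPM with A485. All 6 values lay below the lowest DMSO, NT or JQAD value of 7.41 CPM, and 100 nM A485 was nearest to it. The fitted changes were -1.66 with dCBP (SE 0.32, edgeR adjusted p = 0.000554), -2.06 with IHK-44 (SE 0.32, adjusted p = 0.000102) and -0.91 with A485 (SE 0.30, adjusted p = 0.0457). The A485 call was lost in 13 of the 20 fits that left out 1 library, and with library sizes alone (adjusted p = 0.0502). At 2 h the call was lost without the 1000 nM library of the compound, with adjusted p = 0.0886 for dCBP and 0.0557 for IHK-44. With a single control the dCBP call at 2 h was also lost, at adjusted p = 0.0853 against DMSO and 0.0509 against NT, while its log2 change stayed at -2.18 and -2.46.

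Among the period genes, whose proteins are the core repressors together with CRY, PER1 was lower at both times. At 2 h DMSO and NT gave 81.5 and 71.9 CPM, and the 6 libraries of A485, dCBP and IHK-44 ran from 53.6 to 66.8 CPM. They did not overlap with DMSO, NT and JQAD, but none of the 3 changes passed. The values were -0.54 with A485, -0.31 with dCBP and -0.43 with IHK-44 (edgeR adjusted p = 0.160, 0.249 and 0.136).

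At 6 h PER1 stood at 87.4 and 85.0 CPM in DMSO and NT and at 83.83 and 78.04 CPM with JQAD (1000 and 100 nM). A485 gave 39.0 and 54.9 CPM, dCBP 48.7 and 59.3 CPM, and IHK-44 42.8 and 33.0 CPM. The highest of these 6 lay below the lowest of the 4 others. The log2 change of PER1 was -0.96 with A485 (SE 0.16, edgeR adjusted p = 0.00257), -0.83 with dCBP (SE 0.16, adjusted p = 0.000524) and -1.36 with IHK-44 (SE 0.16, adjusted p = 9.69e-06). Class means were 54.5% of the mean of DMSO and NT with A485 and 62.7% with dCBP, and the IHK-44 libraries stood at 49.7% (1000 nM) and 38.3% (100 nM) of it. Against DMSO alone the A485 value was -0.97 with adjusted p = 0.0528.

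PER2 moved at 6 h. It stood at 35.2 and 38.2 CPM in DMSO and NT, at 20.2 and 21.4 CPM with dCBP (1000 and 100 nM), at 20.7 and 19.4 CPM with IHK-44 and at 23.5 and 32.5 CPM with A485. The dCBP and IHK-44 libraries formed a tight range below all others, and the 100 nM A485 library lay closest to the controls. The log2 change of PER2 was -0.97 with dCBP (SE 0.14, edgeR adjusted p = 5.86e-05), -1.04 with IHK-44 (SE 0.14, adjusted p = 2.97e-05) and -0.47 with A485 (SE 0.14, adjusted p = 0.0293). The A485 change was no longer called without the 1000 nM library at 6 h (-0.22, adjusted p = 0.424), without DMSO at 6 h (adjusted p = 0.0893) or without NT at 6 h (adjusted p = 0.191). At 2 h PER2 ran from 29.1 to 37.9 CPM in the 6 libraries and from 37.2 to 43.5 CPM in DMSO, NT and JQAD, with an overlap through dCBP.

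PER3 ran from 20.5 to 31.5 CPM over all 20 libraries, and the classes overlapped. Its fitted changes against DMSO and NT lay between -0.21 and 0.16 at the 2 times. The interval for dCBP at 6 h was -0.47 to 0.05, so a decrease as large as those of PER1 and PER2 lies outside it.

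The cryptochromes, the partners of PER in repression, moved little. CRY1 ran from 60.2 to 74.9 CPM over the 20 libraries. At 6 h it stood at 66.6 and 66.0 CPM in DMSO and NT, at 63.6 and 60.3 CPM with dCBP and at 60.2 and 63.2 CPM with IHK-44. CRY1 fell by 0.27 on the log2 scale with IHK-44 (SE 0.10, edgeR adjusted p = 0.0403), and with dCBP its value was -0.26 (SE 0.10, adjusted p = 0.0503), just outside the threshold. With library sizes alone the IHK-44 change was -0.10 (adjusted p = 0.369), so the CRY1 call rests on the scaling. The call was also lost in 7 of 20 fits without 1 library.

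CRY2 stood at 21.3 and 18.7 CPM in DMSO and NT at 2 h and at 22.9 to 27.9 CPM in the 6 libraries of A485, dCBP and IHK-44. It was the 1 gene of the 10 in which all 6 lay above DMSO, NT and JQAD at 2 h, where 15% of 12174 genes did so and 8.61% lay below. No CRY2 change passed in the fits, with values of 0.30, 0.24 and 0.22 (edgeR adjusted p = 0.462, 0.379 and 0.498). PER1, NR1D2 and BHLHE40 were the 3 genes with all 6 libraries below at 2 h. At 6 h the 3 were PER1, PER2 and BHLHE40, beside 11% of all genes. With dCBP and with IHK-44 taken singly at 6 h, CRY1 also lay below (19.6% and 22.7% of genes did). CRY2 lay above with each of these compounds at 6 h (42.9% and 51.4% of genes did). JQAD was placed with the controls for these counts after its own comparison was known.

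NR1D2, the more abundant REV-ERB gene, already declined with time in DMSO and NT, and it was lower again with dCBP and IHK-44. At 6 h it stood at 71.1 and 50.6 CPM with dCBP (1000 and 100 nM), at 61.9 and 71.7 CPM with IHK-44 and at 92.8 and 115 CPM with A485, beside 113 and 123 CPM in DMSO and NT. The dCBP and IHK-44 libraries did not overlap with the controls, whereas 100 nM A485 did. With JQAD counted among the controls, 19.6% and 22.7% of genes with a mean of at least 1 CPM lay below with dCBP and IHK-44. The log2 change of NR1D2 was -1.12 with dCBP (SE 0.15, edgeR adjusted p = 3.69e-05) and -0.99 with IHK-44 (SE 0.15, adjusted p = 9.77e-05), with class means at 51.6% and 56.7% of the mean of DMSO and NT. With A485 at 6 h the value was -0.26 (SE 0.15, adjusted p = 0.237).

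NR1D1 was not called in any of these comparisons. It ran from 7.17 to 12.4 CPM over the 20 libraries. At 6 h its fitted changes were 0.02 with A485, 0.15 with dCBP and 0.23 with IHK-44, where the interval was -0.19 to 0.65. Its dCBP and IHK-44 libraries at 6 h lay above DMSO, NT and JQAD of that time. So did 42.9% and 51.4% of genes with a mean of at least 1 CPM. At 2 h dCBP gave 9.02 and 7.17 CPM beside 10.5 and 12.3 CPM in DMSO and NT (-0.54, SE 0.20, edgeR adjusted p = 0.116). These dCBP values lay below DMSO, NT and JQAD at 2 h, as did 16% of such genes.

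DBP, the output activator, was higher with IHK-44. It stood at 6.06 and 5.73 CPM with IHK-44 at 2 h (1000 and 100 nM) and at 8.20 and 6.10 CPM at 6 h, beside 3.48 and 3.92 CPM at 2 h and 4.80 and 4.63 CPM at 6 h in DMSO and NT. All 4 IHK-44 libraries were above DMSO, NT and JQAD of their time. Of genes with a mean of at least 1 CPM, 33.9% lay above in this way at 2 h and 51.4% at 6 h. Neither time passed by itself (0.62 and 0.42, edgeR adjusted p = 0.138 and 0.131), but the average over both times rose by 0.52 (SE 0.16, adjusted p = 0.0141). The call of this average was lost without DMSO at 2 h (0.47) or without 1000 nM IHK-44 at 6 h (0.42). With library sizes alone, DBP at 6 h passed with IHK-44 (0.59, edgeR adjusted p = 0.0397) and with dCBP (0.63, adjusted p = 0.0319). With dCBP, DBP stood at 7.79 and 6.78 CPM at 6 h, with a value of 0.47 (SE 0.22, adjusted p = 0.0919).

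CLOCK, the activator at the head of the loop, was lower with dCBP and IHK-44 at 6 h. It stood at 152 and 99.4 CPM with dCBP (1000 and 100 nM) and at 136 and 142 CPM with IHK-44, beside 165 and 175 CPM in DMSO and NT and 139 and 183 CPM with JQAD. The 4 libraries lay below DMSO and NT but overlapped with JQAD. The log2 change of CLOCK was -0.60 with dCBP (SE 0.16, edgeR adjusted p = 0.00500) and -0.46 with IHK-44 (SE 0.15, adjusted p = 0.0247). The dCBP value was -0.34 (adjusted p = 0.0929) without the 100 nM library, which was the lowest of all 20. With library sizes alone the IHK-44 value was -0.29 (adjusted p = 0.133), and the call was also lost without DMSO, NT or either IHK-44 library at 6 h (adjusted p = 0.0579 to 0.138). With A485 at 6 h CLOCK stood at 186 and 199 CPM, with a value of 0.09 (adjusted p = 0.702).

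JQAD left the 10 genes near DMSO and NT. The fitted values lay between -0.14 and 0.13 at 2 h and between -0.09 and 0.16 at 6 h. For 0 of 10 genes was an edgeR adjusted p under 0.05 at either time (0 of 13260 genes, 0.00%), also at an unadjusted p under 0.05 and by DESeq2. For BHLHE40 the intervals were -0.65 to 0.53 at 2 h and -0.49 to 0.70 at 6 h, and for PER1 at 6 h -0.42 to 0.23. NT and DMSO also did not separate for any of the 10 (0 of 13260 genes, 0.00%, edgeR, with 0 of the 10 at an unadjusted p under 0.05 and 0 by DESeq2).

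In single libraries set against DMSO at the matching time, 14 values of the 10 genes in the 16 treated libraries were 2-fold or more lower on the log2(CPM + 1) scale and 0 were higher. BHLHE40 held 10 of them, PER1 3 and NR1D2 1. In deposited TPM there were 18, with a different split. A485 then had 0 in place of 3, 100 nM dCBP at 6 h had 5 in place of 2, and IHK-44 at 6 h had 3 (1000 nM) and 4 (100 nM) in place of 2 each. The median log2 ratio of all genes moved too. With 1000 nM A485 at 2 h and 6 h it was 0.35 and 0.42 in TPM (0.06 and 0.14 in CPM). With 100 nM dCBP at 6 h it was -0.40 (0.16 in CPM). With 1000 and 100 nM IHK-44 at 6 h it was -0.21 and -0.22 (0.22 and 0.18 in CPM). Among all 12174 genes with a mean of at least 1 CPM, 0.0246% to 6.97% were that much lower in a treated library, and 2.36% over the 16 libraries together. No test was made on single libraries.

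Averaged over both times, the called genes were BHLHE40, PER1, PER2 and NR1D2 with A485 (4 of 10 lower, beside 9.70% of all genes). With dCBP they were these 4 with CLOCK and CRY1 (6 of 10 lower, beside 21.8%). With IHK-44 they were the same 6 and DBP, the 1 gene that rose (7 of 10 in either direction, beside 40.9%). The log2 change of BHLHE40 was -1.17 (SE 0.21), -1.99 (SE 0.23) and -2.19 (SE 0.23) in that order, with edgeR adjusted p = 0.00289, 1.28e-05 and 7.98e-06. Among these averages, leaving out 1 library ended the call of NR1D2 with A485 in 8 of 20 fits, of PER2 with A485 in 5, and of CRY1 with dCBP in 5 and with IHK-44 in 6. CLOCK with IHK-44 was not called without NT at 2 h (adjusted p = 0.0517). With library sizes alone CRY1 was at -0.09 with both (adjusted p = 0.287 and 0.268), CLOCK with IHK-44 at -0.26 (adjusted p = 0.0594) and NR1D2 with A485 at -0.27 (adjusted p = 0.0663), and CRY2 with dCBP passed at 0.32 (adjusted p = 0.0179).

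The third comparison asked whether the change from 2 h to 6 h itself differed under a compound. A difference was called for PER2 with dCBP and for PER1 with IHK-44. That 1 of 10 genes with each compound lies near the share of all genes given below. PER2 went from 36.4 to 20.2 CPM at 1000 nM dCBP and from 37.9 to 21.4 CPM at 100 nM, a log2 change of -0.94 (SE 0.14, edgeR adjusted p = 0.000201), while DMSO and NT changed by -0.07. The difference in time change was -0.87 (SE 0.20, edgeR adjusted p = 0.0140), and 1 of 10 genes was lower beside 6.40% of all genes. PER1 went from 59.3 to 42.8 CPM at 1000 nM IHK-44 and from 58.4 to 33.0 CPM at 100 nM, a log2 change of -0.75 (SE 0.16, adjusted p = 0.00193), while DMSO and NT changed by 0.17. Here the difference was -0.92 (SE 0.22, adjusted p = 0.0149), with 1 of 10 lower beside 7.76%. With A485 and JQAD 0 of 10 were called (0.00754% and 0.00% of all genes, edgeR), with 0 at an unadjusted p under 0.05 and 0 by DESeq2. The PER2 call was lost without NT at 2 h, NT at 6 h or 100 nM dCBP at 2 h, at adjusted p = 0.0600 to 0.0706. The PER1 call was lost without DMSO at 6 h, NT at either time or 100 nM IHK-44 at either time, at adjusted p = 0.0555 to 0.0837.

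Of the 10, NR1D2 had the largest decline with time, -1.26 with dCBP (SE 0.15, edgeR adjusted p = 6.39e-05) and -1.19 with IHK-44 (SE 0.15, adjusted p = 4.59e-05). Its decline in DMSO and NT was -0.62, and the difference did not pass for either compound (-0.64 and -0.57, adjusted p = 0.0719 and 0.106). BHLHE40 did not fall further from 2 h to 6 h, and its time changes with A485, dCBP and IHK-44 were 0.27, 0.40 and 0.0015 with SE 0.32 to 0.38. Within dCBP 3 of 10 genes were called over time (32.4% of all genes), which were PER2, NR1D2 and DBP, and DBP rose by 0.74 (SE 0.23, adjusted p = 0.0197). The DBP call was lost without 1000 nM dCBP at 6 h or 100 nM dCBP at 2 h (adjusted p = 0.0700 and 0.159). Within IHK-44 4 were lower (17.8%), which were PER1, PER2, PER3 and NR1D2. The PER3 call (-0.34, adjusted p = 0.0361) was lost in 15 of 20 fits without 1 library. Within A485 and JQAD 0 of 10 were called (7.63% and 0.0830% of all genes), with 3 and 1 at an unadjusted p under 0.05 and 1 in each by DESeq2.

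Compounds were compared at matched doses and times in 6 pairs, averaged over 2 h and 6 h, with p-values adjusted over the genes within each pair. A485 differed from dCBP in 3 of 10 genes, all higher with A485 (7.19% of all genes were). BHLHE40 was higher with A485 by 0.82 (SE 0.24, edgeR adjusted p = 0.0414), NR1D2 by 0.47 (SE 0.11, adjusted p = 0.0136) and CLOCK by 0.40 (SE 0.11, adjusted p = 0.0292). A485 differed from IHK-44 in 4 genes (8.91%). BHLHE40 was higher by 1.02 (SE 0.24, adjusted p = 0.0205), PER2 by 0.41 and NR1D2 by 0.37, and DBP was lower, at -0.56 (SE 0.16, adjusted p = 0.0359). PER1 did not differ between A485 and dCBP (-0.18, interval -0.41 to 0.06) or between A485 and IHK-44 (0.15, interval -0.09 to 0.38) at this threshold. All 3 calls against dCBP were lost without 100 nM A485 at 2 h or 6 h, without 1000 nM dCBP at 2 h or without 100 nM dCBP at 6 h. All 4 against IHK-44 were lost without 100 nM A485 at either time, without 1000 nM IHK-44 at either time or without 100 nM IHK-44 at 2 h. Singly, BHLHE40 against dCBP was lost in 13 of 20 fits, and against IHK-44 NR1D2 was lost in 11 (and with library sizes alone, adjusted p = 0.0525) and DBP in 9.

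Between dCBP and IHK-44, 0 of 10 genes were called (0 of 13260, 0.00%), with 1 at an unadjusted p under 0.05 and 0 by DESeq2. The intervals for dCBP minus IHK-44 were -0.36 to 0.76 for BHLHE40, -0.32 to 0.13 for NR1D2, -0.01 to 0.41 for PER2 and 0.09 to 0.56 for PER1. The PER1 interval leaves 0 out, with an adjusted p = 0.419. Each of A485, dCBP and IHK-44 differed from JQAD, in 3 genes (lower, beside 9.01% of all genes), 7 genes (lower, 20.6%) and 7 genes (6 lower and DBP higher, 40.5% in either direction). The lower genes were BHLHE40, PER1 and PER2 with A485, with NR1D2, CRY1 and CLOCK added for dCBP and IHK-44 and PER3 for dCBP. With library sizes alone PER3, CRY1 and CLOCK were lost for dCBP (adjusted p = 0.268, 0.0921 and 0.0664), where CRY2 was higher (0.29, adjusted p = 0.0335), and CRY1 and CLOCK for IHK-44 (adjusted p = 0.0834 and 0.125). DBP was lost by DESeq2 (adjusted p = 0.0661). The log2 difference of BHLHE40 from JQAD was -1.19, -2.01 and -2.21 in that order (SE 0.21 to 0.23), with adjusted p = 0.00330, 1.61e-05 and 9.78e-06.

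Dose made no difference that passed in any of the 10 genes (0 of 10 for each compound, edgeR on the 16 treated libraries, 4 residual degrees of freedom). The shares over 13137 genes were 0.929% with A485, 0.00% with dCBP, 0.107% with IHK-44 and 0.00% with JQAD. With A485, 2 of the 10 had an unadjusted p under 0.05, and with the other compounds 0 had one (share of all genes not given). DESeq2 called 0 of 10 for each compound. BHLHE40 with A485 came nearest, with 1000 nM below 100 nM (-0.92 in log2 terms, SE 0.27, edgeR adjusted p = 0.172). It was at 29.5% of the mean of DMSO and NT at 1000 nM and 46.6% at 100 nM after 2 h, and at 36.9% and 75.8% after 6 h. PER1, PER2 and NR1D2 were also lower at the higher A485 dose at 6 h, at 45.3%, 64.0% and 78.7% of that mean beside 63.7%, 88.5% and 97.9%. With dCBP and IHK-44 the order of the doses at 6 h varied by gene. With dCBP, PER1 was at 56.6% (1000 nM) and 68.9% (100 nM), and NR1D2 at 60.3% and 42.9%. With IHK-44, PER1 was at 49.7% and 38.3%, and NR1D2 at 52.5% and 60.8%. With dCBP the interval of the dose effect on BHLHE40 was -0.60 to 0.76, and with IHK-44 the value was -0.32 (SE 0.31).

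Of 25 further clock genes listed as activators, repressors, D-box factors, turnover factors and outputs, 22 had a row and 19 passed the filter on low counts. With dCBP at 6 h 8 of 19 fell and 2 rose, where 22.4% of all genes fell and 23.2% rose. With IHK-44 9 fell and 1 rose (21.4% and 20.7% of all genes), and with A485 4 fell and 1 rose (8.70% and 7.87%). At 2 h 6 fell with dCBP (2.67%) and 5 with IHK-44 (2.45%), and 0 were called with A485 or with JQAD at either time. The median log2 change at 6 h was -0.11, -0.40 and -0.09 for dCBP, IHK-44 and A485. All 4 of the outputs fell at 6 h with dCBP and with IHK-44, and 0 of 3 further repressors were called.

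RORA, the nuclear receptor that activates BMAL1 in opposition to the REV-ERB proteins, fell with both. It stood at 60.6 and 56.8 CPM in DMSO and NT at 6 h, at 17.1 and 10.3 CPM with dCBP (1000 and 100 nM) and at 14.9 and 14.7 CPM with IHK-44. The log2 changes were -2.26 (SE 0.31, edgeR adjusted p = 3.20e-05) and -2.16 (SE 0.30, adjusted p = 3.88e-05). KLF10, a clock-controlled zinc finger factor, was lower within 2 h, at -1.67 with dCBP (SE 0.29, edgeR adjusted p = 0.00613) and -1.92 with IHK-44 (SE 0.30, adjusted p = 0.00216). Its 6 h values were 13.3 and 12.1 CPM in the dCBP libraries beside 58.8 and 61.4 CPM in DMSO and NT.

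WEE1, a clock-controlled kinase that holds back mitosis, fell at 6 h, with log2 changes under dCBP, IHK-44 and A485 of -1.22, -1.05 and -0.54 (SE 0.16 each). USP2, a deubiquitinase whose targets include clock proteins, fell at 6 h, at -2.58 with IHK-44 (SE 0.39) and -1.41 with A485 (SE 0.36). TEF, a D-box factor like DBP, fell from 2 h to 6 h within A485, dCBP and IHK-44 (-0.58, -0.66 and -0.65, SE 0.12 to 0.13). Its time change was -0.26 in DMSO and NT and -0.43 with JQAD (edgeR adjusted p = 0.569 and 0.278), and the difference from DMSO and NT did not pass with A485, dCBP or IHK-44 (adjusted p = 0.565, 0.1703 and 0.182). BTRC, a ligase adaptor for PER, rose over the same interval by 0.35, 0.36 and 0.35 (SE 0.07), beside 0.30 in DMSO and NT (adjusted p = 0.178), and here too the difference did not pass (adjusted p = 0.872, 0.775 and 0.825).

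**Figure D4:**
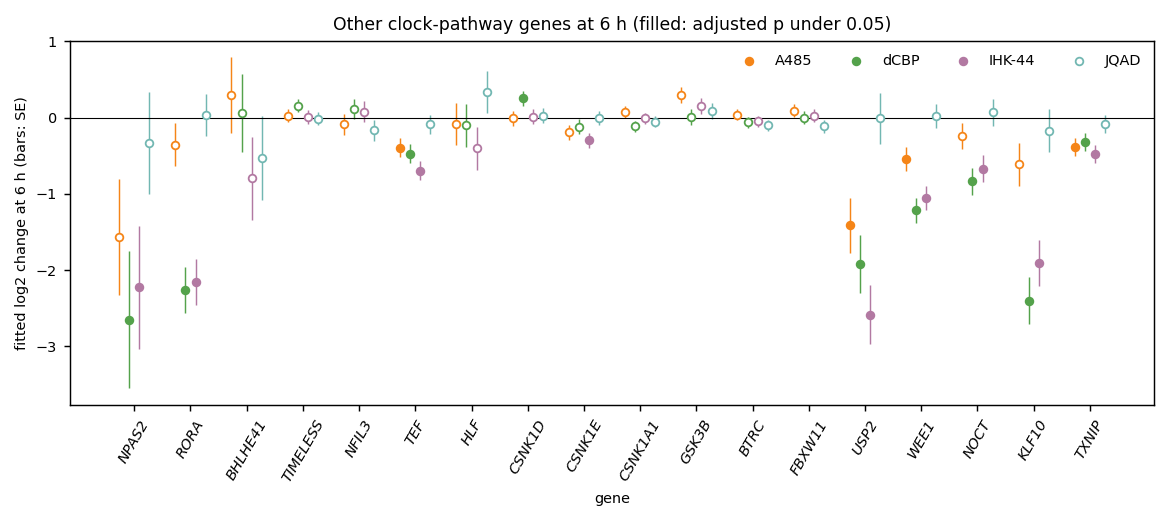
Fitted log2 change at 6 h (vertical axis, bars for the SE) of other clock-pathway genes that passed the filter, by compound, with filled points at an adjusted p under 0.05. RORA is at -2.26 with dCBP and -2.16 with IHK-44, and no JQAD point is filled.

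PER1 and its relatives are also induced directly by hormone and serum signals, so targets of those signals were counted. Of 5 tested glucocorticoid targets, 2 fell at 2 h with dCBP and 2 with IHK-44, and 1 with A485 (2.67%, 2.45% and 0.0452% of all genes fell). At 6 h 3 fell and 1 rose with dCBP, 3 fell with IHK-44 and 1 fell with A485 (22.4%, 21.4% and 8.70% of all genes fell). The genes that fell at 2 h with dCBP and IHK-44 were KLF9 and SGK1, named after their values were seen, with KLF9 at -1.54 (SE 0.19) and -1.32 (SE 0.19). Of 9 tested immediate early and cyclic AMP targets, 0 fell with any compound at either time. With dCBP 1 rose at 2 h and 6 at 6 h, with IHK-44 1 rose at 2 h and 2 at 6 h, and with A485 1 rose at 6 h. Of all genes 2.96% and 2.43% rose at 2 h with dCBP and IHK-44, and 23.2%, 20.7% and 7.87% at 6 h with dCBP, IHK-44 and A485, so the IHK-44 and A485 counts at 6 h lie near those shares. The gene that rose at 2 h was EGR1 in both, by 2.17 (SE 0.46) and 2.25 (SE 0.45). Their part in the changes of the clock genes was not tested.

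Over the 20 libraries the highest correlations among the 10 were those of PER2 with NR1D2 (Pearson r = 0.866 on log2(CPM + 1)) and PER2 with PER1 (r = 0.816), and DBP ran opposite to PER2 (r = -0.827) and NR1D2 (r = -0.825). CRY2 ran opposite to CLOCK (r = -0.735). These are descriptions over libraries that share treatments and times. Among 10544 other genes with a mean of at least 5 CPM, the 2 most like each gene were RBMX (0.979) and TBC1D9 (0.972) for NR1D2, TENM3 (0.966) and PID1 (0.965) for PER2, and LFNG (0.961) and MIDN (0.958) for PER1. For BHLHE40 they were STX11 (0.962) and CITED2 (0.958), for CLOCK CLIP4 (0.939) and BMPR2 (0.935), for CRY2 FEM1A (0.921) and GID8 (0.896), and for DBP WDR24 (0.905) and CCT4 (0.899). CRY1, PER3 and NR1D1 had weaker matches, led by EWSR1 (0.835), FAM107B (0.845) and NFYC (0.801).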

How the data were processed

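RNA-seq values of RH4 cells were used for 20 libraries grouped by the treatment, dose and time in the labels. Per the submitters' processing notes, STAR 2.5.3a, RSEM 1.3.3 and the hg38 build were named. The authors deposited expected counts, TPM, FPKM and CPM for 18980 coding genes. The deposited expected counts are estimated reads and 88.2% of them were whole numbers. TPM and FPKM, as deposited by the authors, were scaled over more rows than the coding genes, which held 27.91% to 53.92% of the TPM. The deposited CPM scales the coding rows of each library to 1 total.

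The expected counts, rounded to whole numbers, entered edgeR 4.0.16 (R 4.3.3) with its quasi-likelihood test, TMM factors (0.946 to 1.10), filterByExpr (13260 genes) and Benjamini-Hochberg adjustment over all genes, with a threshold of 0.05. The 10 cells of the design were class by time, with DMSO and NT as 1 class and the 2 doses of a compound in place of replicates. The fit had 10 residual degrees of freedom, and all 10 clock genes passed the filter. Dose was tested in the 16 treated libraries with compound and time as a block. Intervals are 95%. They are exact Poisson for CPM of single libraries and cover counting error only.

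Alternatives were DESeq2 1.42.0, limma 3.58.1 on log2(CPM + 1), other scaling, no filter, other designs and controls, another pseudocount (0.1 in place of 1) and each library left out. On simulated counts, 84.3% of 197 genes changed by 1 log2 unit were recovered for dCBP at 6 h, 88.7% of 195 for the time change in DMSO and NT, and 68% of 194 for the difference in time change with dCBP. False calls numbered 9, 4 and 2 in that order. The simulation gave all genes the same spread and changed few genes in a single cell, so these shares need not hold for the real data. All 10 clock genes are named. Of the other clock lists, at most the 3 genes with the smallest adjusted p per comparison are named, and as most alike the 2 genes with the highest r. The genes and lists were chosen with earlier results of these data known. A further clock-pathway gene is counted in its list but is not reported here. Promoter windows came from RefSeq on GRCh38.p14.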

Additional observations from a re-analysis of the deposited data

Results flagged for a closer look

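PER2 with dCBP and PER1 with IHK-44 are listed because their change from 2 h to 6 h differed from that in DMSO and NT by a test of the difference itself. The difference for PER2 with dCBP was -0.872 in log2 terms (SE 0.20, interval -1.29 to -0.45, edgeR adjusted p = 0.0140). PER2 was lower at 6 h than at 2 h in both dCBP doses, while it was lower in DMSO and higher in NT. The difference for PER1 with IHK-44 was -0.924 (SE 0.22, interval -1.39 to -0.46, edgeR adjusted p = 0.0149). PER1 was lower at 6 h in both IHK-44 doses and higher in both DMSO and NT. In the same test PER1 with dCBP had -0.52 (adjusted p = 0.153) and PER2 with IHK-44 had -0.61 (adjusted p = 0.0625), so whether the 2 compounds differ in this respect was not tested.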

How the results depend on the processing

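The labels carry no replicate numbers, so no pairing by number was made. Pairing 2 h with 6 h by condition (a condition block) called 0 of the 10 genes for time in DMSO and NT. The spread in the fits holds the difference between doses and between DMSO and NT.

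Counts of the 10 genes called moved as follows. DESeq2 gave 1 for time in DMSO and NT, 1 for A485 at 2 h, 2 for dCBP at 2 h, 2 for IHK-44 at 2 h, 1 for time within A485, 1 within JQAD and 2 for the dCBP difference in time change. Without the filter they were 2 for A485 at 2 h, 2 for dCBP at 2 h, 1 for time within A485, 1 within JQAD and 2 for the dCBP difference. For time in DMSO and NT, adding JQAD gave 1 and the 4 control libraries alone gave 2. With DMSO as the only control, A485 at 6 h gave 0 and dCBP at 2 h gave 0, and with NT they gave 1 and 0. With treatment plus time against DMSO, the averages over time gave 0 with A485, 3 with dCBP and 4 with IHK-44. The CRY2 time change in DMSO and NT turned to -0.059 with JQAD added, and to -0.012 and -0.072 without DMSO at 6 h and NT at 2 h, within a range of -0.072 to 0.122 over the fits without 1 library.

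Leaving out 1 library, the counts ran from 0 to 2 for A485 at 2 h, 1 to 4 for A485 at 6 h, 0 to 2 for dCBP at 2 h, 0 to 3 for IHK-44 at 2 h, 2 to 4 for the A485 average, 0 to 3 for time within A485, 0 to 1 within JQAD, 0 to 2 for the A485 difference in time change, 0 to 3 for that of dCBP, 0 to 2 for that of IHK-44, 0 to 4 for A485 minus dCBP, 0 to 5 for A485 minus IHK-44 and 0 to 1 for dCBP minus IHK-44. At 6 h they ran from 4 to 7 for dCBP and from 4 to 6 for IHK-44. The other totals of clock genes called stayed within 1.5 times, though 7 lower genes for dCBP minus JQAD became 4 lower and 1 higher with library sizes alone, and the single-library count of 14 was 18 in TPM with another split between libraries. For single called genes, 326 values kept their call and 53 missed the threshold under settings other than a left-out library, and 1166 kept it and 154 missed it with 1 library left out, with 0 changes of sign.

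Counts over all genes moved by more than 1.5 times as follows. Time in DMSO and NT had 10, with 44 by DESeq2, 227 with JQAD added, 3 with a condition block and 1290 in the 4 control libraries. A485 at 2 h had 6, with 10 by RLE, 12 by library size, 192 without the filter, 131 by DESeq2, 13 by limma and 0 with either control alone. With DMSO and with NT as the only control, A485 at 6 h had 49 and 244 in place of 2197, dCBP at 2 h 0 and 0 in place of 747, IHK-44 at 2 h 68 and 99 in place of 647, and IHK-44 at 6 h 3446 and 3718 in place of 5584. dCBP at 6 h had 3929 with DMSO in place of 6038. Against DMSO with treatment plus time, the averages had 36, 3137 and 2247 in place of 2527, 6149 and 5420. The A485 dose effect had 122, with 73 by library size, 243 without the filter, 227 by DESeq2 and 72 by limma. Smaller counts also moved: time within JQAD from 11 to 23 without the filter and 69 by DESeq2, the A485 difference in time change from 1 to 17 in both, dCBP minus IHK-44 from 0 to 4 and 7 in that order, the IHK-44 dose effect from 14 to 30 by DESeq2, the dCBP dose effect from 0 to 1 without the filter and JQAD at 6 h from 0 to 1 by DESeq2. Causes of these moves were not tested. The single-control fits set each compound against fewer control libraries and also held DMSO and NT as separate classes.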
